A study of Rattus norvegicus with 4 samples.

Results

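Cell cycle and DNA replication genes were followed in the rat hippocampus after 4 weeks of voluntary running. The set was a list of 48 genes chosen by function: cyclins, cyclin-dependent kinases, inhibitors of those kinases, replication enzymes, mitotic regulators, checkpoint phosphatases and kinases, pocket proteins with E2F factors, and growth arrest genes. Probes of the array were named through their transcript accessions, and 33 of the 48 genes had a named probe, with 50 probes between them, out of 8893 genes and 10759 probes named on the array in all. The genes Bub1b, Ccne1, Cdc6, Cdk7, E2f1, E2f5, Mcm2, Mcm3, Mcm4, Mcm5, Mcm6, Mki67, Plk3, Rb1 and Top2a were listed but are not analysed here, because no probe was named for them. Mki67 and Top2a, the common markers of dividing cells, and most of the MCM helicase are therefore outside the values that follow. None of the 33 members with a named probe passed the fold limits of the study on both chips of either pair. Of all probes, 0.549% passed them in WR and 1.54% in RWR, so that count is no result about the members. Among the 30 of them measured well above background throughout, the differences whose technical interval left out 0 lay between −0.22 and 0.14 on the log2 scale, except those of Mcm7 (−0.38 in WR over sedentary and 0.49 in RWR over WR), whose chips took opposite signs.

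A dividing cell passes from growth into DNA synthesis when D-type cyclins with Cdk4 phosphorylate the retinoblastoma family and free E2F factors, which switch on the replication genes. Cyclin A and cyclin B with Cdk2 and Cdk1 then carry the cell through DNA synthesis and into mitosis, while p21, p27 and the INK4 proteins hold the kinases back. In the adult hippocampus most neurons no longer divide, and dividing cells are mainly progenitors in the subgranular zone of the dentate gyrus and glial precursors. Voluntary running is known as a stimulus of progenitor proliferation there, which is the reason for reading these genes in running rats.

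The animals were male Wistar rats, 10 weeks old at the start. The sedentary (Sed) group of 10 rats lived in standard cages, the wheel running (WR) group of 8 rats had a free running wheel, and the resistance wheel running (RWR) group of 8 rats had a wheel whose load began at 4.5 g in the first week and was raised step by step to 30% of body weight. Whole hippocampi were collected on the day after the last day of running, and total RNA was pooled within each group, 900 ng in all with 300 ng from each replicate. The number of rats behind a pool is not given in the sources used here. The pools were hybridised in 2 colours to 4 chips of a rat whole-genome array with probes of 60 bases: chip 1 held WR in Cy5 and Sed in Cy3, chip 2 the same pools with the dyes exchanged, chip 3 RWR in Cy5 and Sed in Cy3, and chip 4 those pools with the dyes exchanged. Every ratio below is turned to running over sedentary and given as log2, so that a value below 0 means a lower signal in the running pool.

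The chips of a pair measured the same pools, so each comparison rested on 1 pool per group, and no test between conditions and no error across rats could be given. The error printed with a mean of 2 chips is a technical standard error from a limma fit over all probes, with a dye term for each probe common to the 4 chips, and a technical 95% interval was built from it. It describes the measurement on these chips only, and their number limits its precision. RWR over WR was obtained within each dye, as chip 3 minus chip 1 for Cy5 and chip 4 minus chip 2 for Cy3, and assumes that the same sedentary pool was on all chips. In a tissue pool, fewer cells of a type and less RNA per cell cannot be told apart.

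Signals well above background in every dye and on every chip were found for 30 of the 33 members, while 60.9% of the 41012 probes of the array had them. Aurkb, Cdkn2b and Rrm2 did not. No member had a saturated reading. For genes with several probes the brightest stood for the gene, whereas the 60.9% counts every probe, so the 2 shares have unlike bases. A further probe, which the study's text pairs with Cdc6, the factor that loads the replicative helicase, passed the background flag on 0 of 2 chips in every group, and no fold is given for it.

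The promoters of members that stood out on the chips, and of Cdk1, the kinase that starts mitosis, are shown because many cell cycle genes share promoter letters. RefSeq promoters on GRCr8 (250 bases before to 50 after the start) were found for 37 of the 48 members. 3 kinds of letters were searched on both strands: E2F sites as TTTCCCGC, TTTCGCGC, TTTGCCGC or TTTGGCGC, the cell cycle homology region as TTTGAA or TTCGAA, and the CCAAT box as CCAAT. Matches of either strand are in capitals, and an E2F match may overlap a CCAAT match. The sequences cover chr20:7150682-7150981 for Cdkn1a (plus strand), chr1:83242920-83243219 for Lig1 (plus strand), chr7:1031212-1031511 for Prim1 (plus strand), chr12:22163129-22163428 for Mcm7 (minus strand) and chr20:19265043-19265342 for Cdk1 (plus strand).
Cdkn1a: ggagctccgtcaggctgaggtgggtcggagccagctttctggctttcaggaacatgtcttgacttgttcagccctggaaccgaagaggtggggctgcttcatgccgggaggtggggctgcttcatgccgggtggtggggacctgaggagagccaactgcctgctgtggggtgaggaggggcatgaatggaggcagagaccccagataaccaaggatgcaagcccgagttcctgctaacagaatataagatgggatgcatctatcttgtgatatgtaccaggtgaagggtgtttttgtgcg
Lig1: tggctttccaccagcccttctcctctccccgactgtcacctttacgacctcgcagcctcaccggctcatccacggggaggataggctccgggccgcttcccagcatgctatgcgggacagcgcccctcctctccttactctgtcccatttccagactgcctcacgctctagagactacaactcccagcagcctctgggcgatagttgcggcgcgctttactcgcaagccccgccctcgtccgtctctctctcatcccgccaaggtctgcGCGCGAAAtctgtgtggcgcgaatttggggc
Prim1: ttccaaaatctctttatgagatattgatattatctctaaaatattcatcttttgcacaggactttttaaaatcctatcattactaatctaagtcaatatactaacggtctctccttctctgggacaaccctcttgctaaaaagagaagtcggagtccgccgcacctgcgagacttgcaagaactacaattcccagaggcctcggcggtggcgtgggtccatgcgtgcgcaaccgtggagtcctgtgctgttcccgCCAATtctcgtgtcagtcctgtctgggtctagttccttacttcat
Mcm7: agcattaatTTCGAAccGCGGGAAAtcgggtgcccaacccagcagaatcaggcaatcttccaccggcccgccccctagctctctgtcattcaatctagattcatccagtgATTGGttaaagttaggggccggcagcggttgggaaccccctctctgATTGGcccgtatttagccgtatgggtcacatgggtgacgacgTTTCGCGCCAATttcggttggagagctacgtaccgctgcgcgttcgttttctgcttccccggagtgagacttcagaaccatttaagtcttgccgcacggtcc
Cdk1: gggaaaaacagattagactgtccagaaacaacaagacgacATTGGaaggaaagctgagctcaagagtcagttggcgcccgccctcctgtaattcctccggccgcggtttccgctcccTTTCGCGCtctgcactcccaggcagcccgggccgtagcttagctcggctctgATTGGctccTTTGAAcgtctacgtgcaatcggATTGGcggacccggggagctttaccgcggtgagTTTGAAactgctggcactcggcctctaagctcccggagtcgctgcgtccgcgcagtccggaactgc

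At least 1 E2F match stood in the promoters of 10 of the 37 members, or 27.03%, against 2.25% of 27457 promoters of the same length. The cell cycle homology region was matched in 12 of the 37 (32.4%, against 19.5% of all) and the CCAAT box in 20 (54.1%, against 37.7% of all). The Cdk1 promoter held all 3, and so did that of Mcm7, where an E2F match shared letters with a CCAAT box. Lig1 held an E2F match after its start, Prim1 a single CCAAT box, also after its start, and none of these letters occurred in the Cdkn1a window. Among members measured throughout, the 5 with an E2F match (Cdk1, Mcm7, Cdc25a, Tyms and Lig1) had a median log2 ratio of 0.01 in WR over sedentary and of 0.03 for RWR. The 20 with a promoter but no such match had medians of 0.00 and −0.01. Mcm7, among the 5, had a WR mean of −0.38.

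The members' ratios were centred near 0 in both running modes. In WR over sedentary the median log2 ratio of the 33 members was −0.0035 (quartiles −0.03 and 0.04), with 16 above and 17 below 0, while the median of all probes was 0.01. In RWR over sedentary it was −0.01 (quartiles −0.04 and 0.06), again with 16 above and 17 below 0, against 0.00 for all probes. RWR over WR gave 0.0011 for the members and −0.01 for all probes. Both medians over sedentary have a sedentary pool below the line, taken here to be the same on all chips, so they are not independent of each other.

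A member was called when both of the swapped chips were past the study's fold limits, more than 1.5-fold or less than 0.75-fold in the same turned direction, each with a deposited p-value below 0.01, the threshold named in its methods. By this rule 0 of 33 members were called in WR, where 0.0317% of all probes were, and 0 of 33 in RWR, where 0.0585% were. With the fold limits alone, 0 of 33 members passed in WR and 0 of 33 in RWR, beside 0.549% and 1.54% of all probes. At these background shares a count of 0 in 33 genes is no result about the members. In WR 29 of the 30 members measured throughout had a whole technical interval between 0.75-fold and 1.5-fold, the exception being Mcm7, as did 90.2% of all probes measured throughout. In RWR the same held for 29 of 30, the exception being Ccna2, beside 90.1% of probes, and in RWR over WR for 24 of 30, beside 78.6%. The members' shares were near those of all probes.

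**Figure D1:**
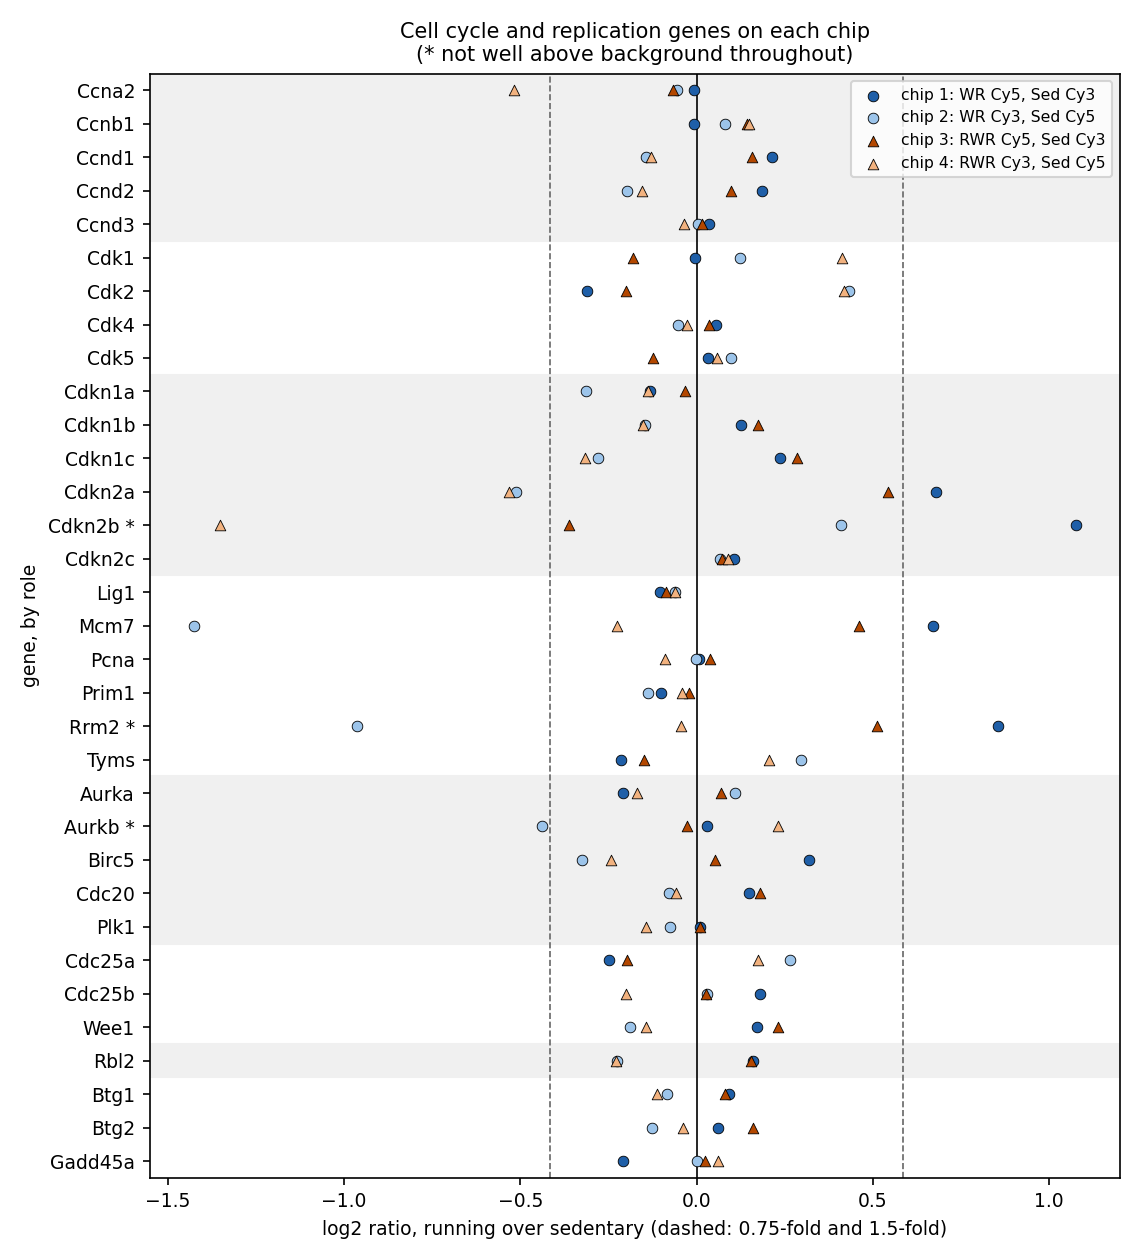
Log2 ratio of running over sedentary (horizontal axis) for each of the 33 measured members (rows, banded by role) on each of the 4 chips, with WR as circles, RWR as triangles and the running pool in Cy5 dark or in Cy3 light. For 15 of the 30 members well above background throughout, and for the dim Rrm2, the dark points lie above 0 and the light points below 0 in both pairs, and no member has both points of a pair beyond the same dashed fold limit.

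Over the members, dye effects were larger than the differences between pools. The median size of the dye term was 0.12 on the log2 scale over the 33 members, whereas that of the pair means was 0.04 for WR over sedentary and 0.05 for RWR over sedentary. Of the 30 members measured throughout, 15 were above 0 on chips 1 and 3 and below 0 on chips 2 and 4 (26.6% of all such probes), and Cdk1, Cdk2, Cdc25a and Tyms showed the opposite dye pattern (24.6%). Only 5 members kept 1 sign on all 4 chips: Cdkn2c above 0, and Ccna2, Cdkn1a, Prim1 and Lig1 below 0, while 5.33% of all probes measured throughout lay above 0 and 5.03% below 0 on all 4. Over all probes the turned ratios of swapped chips correlated negatively (across probes, Pearson's r was −0.77 in the WR pair and −0.67 in the RWR pair), and those of chips with the same dye order positively (0.73 and 0.70), so no single chip was read alone. The dyes were taken as the labels and methods give them, and the direction of every ratio rests on that.

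Members with ratios in 1 direction on both chips numbered 8 of 30 in WR (4 up and 4 down), beside 28.4% of all probes measured throughout, and 7 of 30 in RWR (3 up and 4 down), beside 32.8%. The technical interval left out 0 for 4 of 30 members in WR, all lower (Cdkn1a, Mcm7, Prim1 and Lig1), where it did for 17.1% of all probes. In RWR it left out 0 for Lig1 alone, 1 of 30, where it did for 20.4% of all probes. These shares are near or under the background. For RWR over WR the interval left out 0 for 4 of 30 members, all higher in RWR (Cdkn1a, Mcm7, Prim1 and Btg2), beside 11.9% of all probes, and 15 of 30 had the same direction in both dyes (7 up and 8 down), beside 57.0%. RWR over WR uses the same WR chips. For Cdkn1a, Mcm7 and Prim1, whose WR intervals lay below 0, it is therefore not a separate result.

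**Figure D2:**
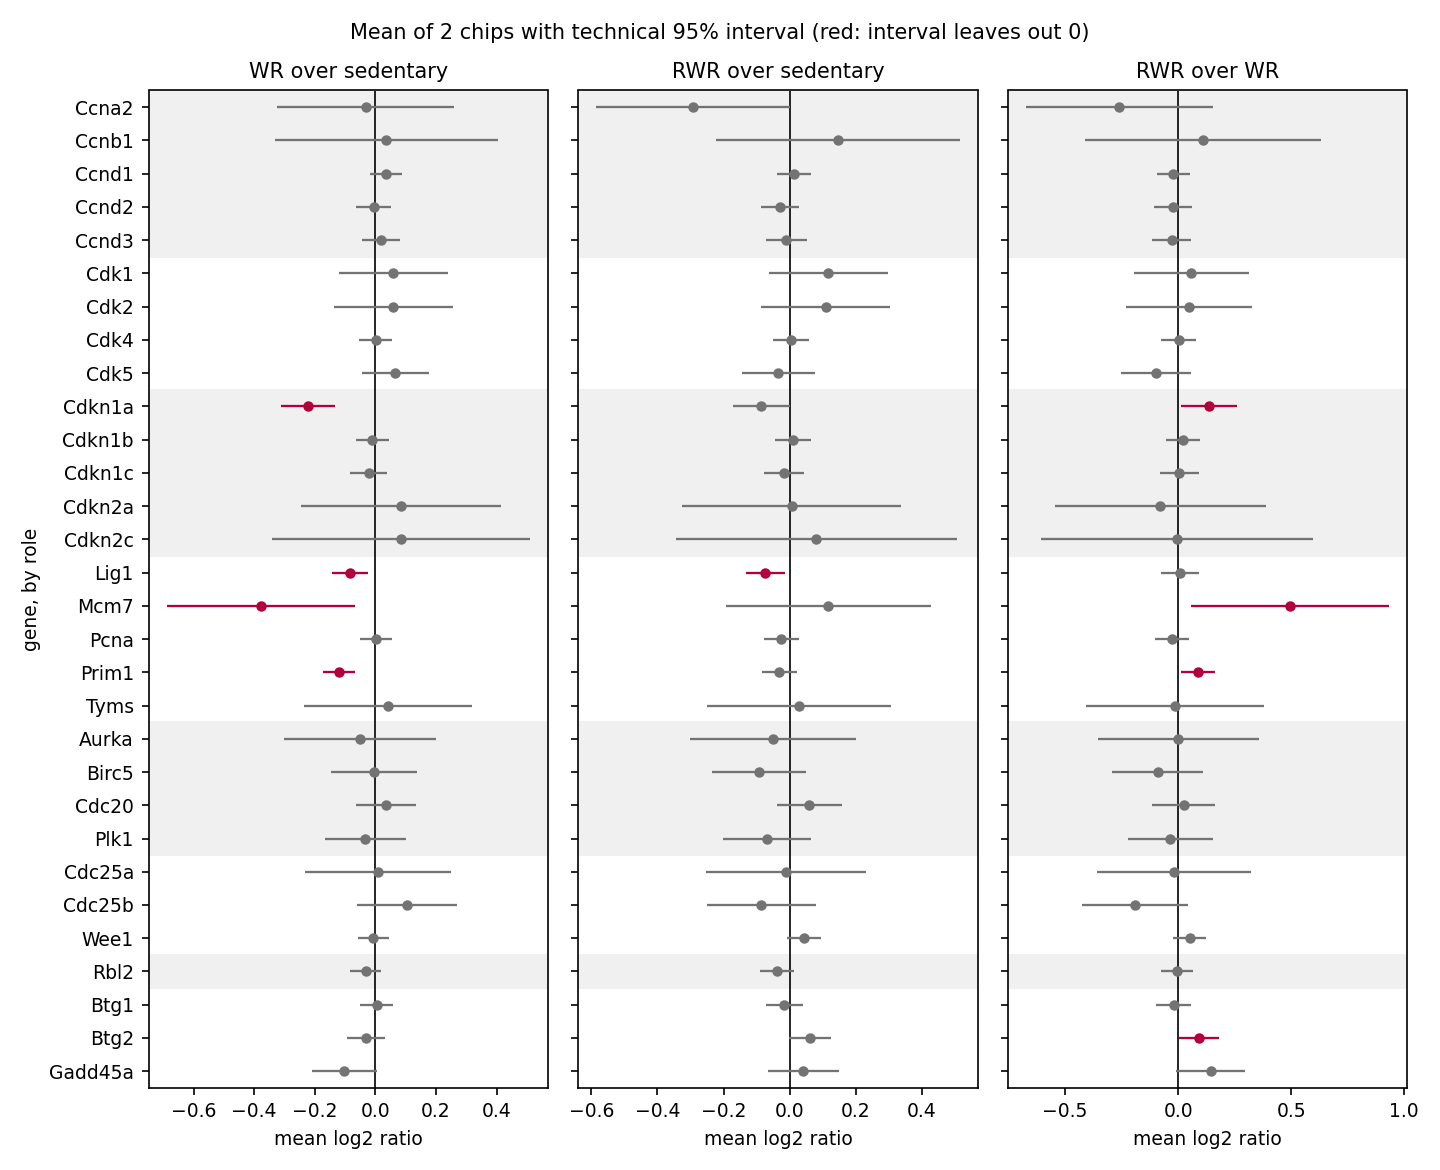
Mean log2 ratio of 2 chips (points) with its technical 95% interval (bars) for the 30 members well above background throughout, in WR over sedentary, RWR over sedentary and RWR over WR; each panel has its own horizontal scale. Red marks intervals that leave out 0: 4 members in WR, 1 in RWR and 4 in RWR over WR.

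Among the kinase inhibitors, Cdkn1a had the clearest difference. It encodes p21, the inhibitor that halts cells before DNA synthesis. Its processed signals in the running and sedentary pools were 293 and 321 on chip 1, 259.6 and 322 on chip 2, 336 and 343 on chip 3, and 285 and 313 on chip 4. The running pool was the dimmer in all 4. The log2 ratios were −0.13 and −0.31 in WR and −0.03 and −0.14 in RWR. The mean was −0.22 ± 0.04 (technical SE, 2 chips) in WR, a fold of 0.857 with an interval of 0.807 to 0.911, and −0.09 ± 0.04 in RWR, a fold of 0.943 whose interval of 0.887 to 1.00 took in 0 on the log2 scale. Between running modes the difference was 0.10 in Cy5 and 0.18 in Cy3, with a mean of 0.14 ± 0.06. With normexp background correction and with none, the intervals of WR and of RWR over sedentary both left out 0, whereas that of RWR over WR did not.

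This Cdkn1a probe was spotted 10 times on each chip, which gives its error within a chip. Spots below 0 numbered 10 of 10 on chip 1, 9 of 9 on chip 2, 8 of 9 on chip 3 and 8 of 8 on chip 4, after flagged spots were left out. The SD over spots was 0.05, 0.05, 0.03 and 0.04 on the log2 scale for chips 1 to 4. The gap between the chips of the WR pair was larger than the spread over spots. Its second probe was not above background on any chip and gives no check of it.

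**Figure D3:**
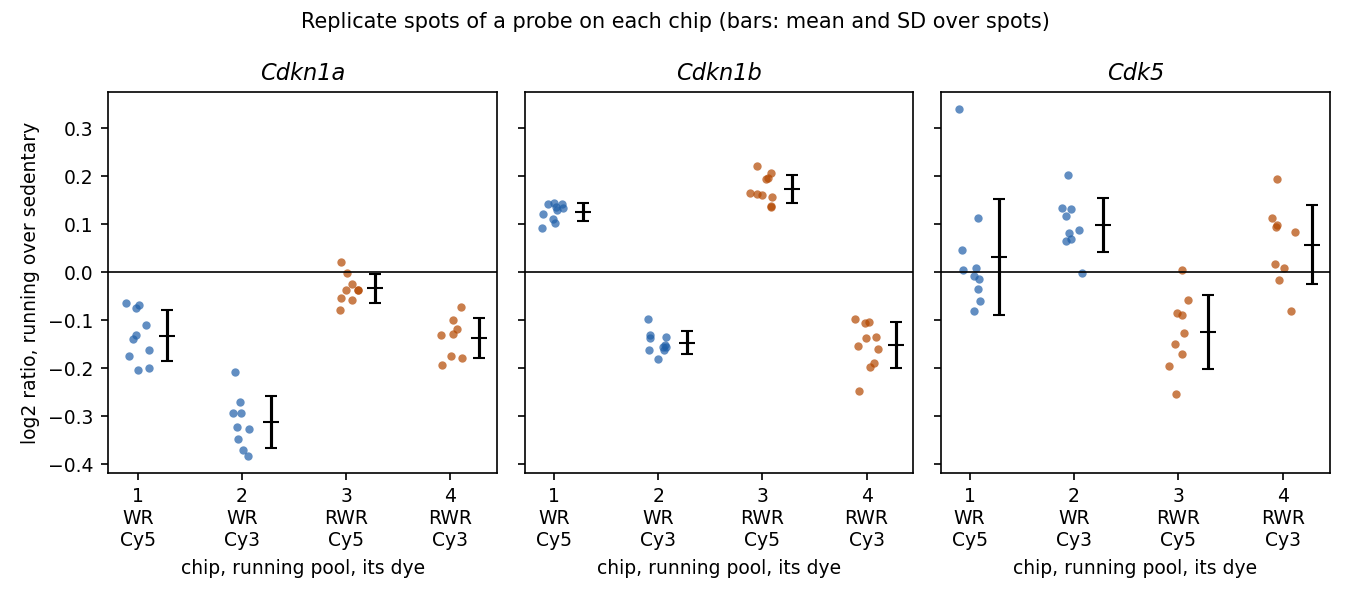
Log2 ratio of running over sedentary (vertical axis) of every kept spot (points) of the probes printed 10 times for Cdkn1a, Cdkn1b and Cdk5, by chip, running pool and its dye, with the mean and SD over spots (bars). Cdkn1a spots lie below 0 on chips 1, 2 and 4 and all but 1 on chip 3, while Cdkn1b spots change sign with the dye on both pairs.

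Cdkn1b, which encodes p27, the inhibitor that keeps cells out of the cycle and marks cells that have left it, was also spotted 10 times, and its spots followed the dye. All 10 spots were above 0 on chip 1, all 10 below 0 on chip 2, all 10 above on chip 3 and all 10 below on chip 4. The chip means were 0.13, −0.15, 0.17 and −0.15, and the pair means −0.01 ± 0.03 in WR and 0.01 ± 0.03 in RWR. Cdkn1c, which encodes p57 of the same family, followed the dye too, with 0.24 and −0.28 in WR and 0.28 and −0.32 in RWR, and pair means of −0.02 ± 0.03 for both. Its other 3 probes had WR means between −0.07 and −0.03.

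Cdkn2a, Cdkn2b and Cdkn2c, of the INK4 inhibitors that block Cdk4, were dim. Cdkn2a read 0.68 and −0.51 in WR and 0.54 and −0.53 in RWR, with means of 0.08 ± 0.16 and 0.01 ± 0.16. Cdkn2c was above 0 on every chip, with 0.11 and 0.07 in WR and 0.07 and 0.09 in RWR, but its technical SE of 0.21 was the highest among members measured throughout, and the means of 0.09 and 0.08 lay well within it. Cdkn2b had processed signals between 5.28 and 13.5, was not well above background in either WR or RWR on any chip, and reached that level only for the sedentary pool on 1 of 2 chips of the RWR pair. It was the single member past the fold limits in RWR over WR, where 5.51% of all probes passed. No value is given for that difference, because neither running pool was well above background, and with normexp or without background correction it did not pass.

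On the brightest probe of each gene the intervals of the 5 measured member cyclins (Ccnd1, Ccnd2, Ccnd3, Ccna2 and Ccnb1) took in 0 in every comparison. Ccnd1, cyclin D1, which couples growth factors to Cdk4, had processed signals of 2024 against 1746 on chip 1 and 1544 against 1706 on chip 2. In RWR they were 1927 against 1729 on chip 3 and 1539 against 1685 on chip 4. The pool in Cy5 was the brighter on every chip, and the pair means were 0.03 ± 0.03 in WR and 0.01 ± 0.03 in RWR, or 1.02-fold and 1.01-fold. Its second probe had the reverse dye pattern, with means of −0.05 ± 0.03 in WR and 0.06 ± 0.03 in RWR. Its RWR interval of 0.0040 to 0.12 left out 0. That probe put RWR over WR at 0.11 ± 0.04, with an interval of 0.03 to 0.19, where the brighter probe gave −0.02 ± 0.04, so the direction between running modes differed between probes of this gene.

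Ccnd2 and Ccnd3, the other D-type cyclins, had means between −0.03 and 0.02 in both comparisons. Ccna2, cyclin A2 of DNA synthesis, read −0.01 and −0.06 in WR and −0.07 and −0.52 in RWR. Its RWR mean of −0.29 ± 0.14 was the most negative among members measured throughout, came mainly from chip 4, and had an interval that reached 0. It was −0.01 with normexp, −0.02 without background correction and 0.21 with the median over its probes, of which the second was not well above background on any chip. The RWR over WR value of −0.26 ± 0.20 turned positive in 3 settings: normexp, uncorrected background, and the median over its probes. Ccnb1, cyclin B1 of mitosis, read −0.01 and 0.08 in WR and 0.14 and 0.15 in RWR. Its means of 0.04 ± 0.18 and 0.15 ± 0.18 were within the error, and its second probe gave −0.19 and −0.03.

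Of the cyclin-dependent kinases, Cdk1 read −0.01 and 0.12 in WR and −0.18 and 0.41 in RWR. The WR mean was 0.06 ± 0.09 and the RWR mean 0.12 ± 0.09, with intervals that took in 0 and a WR value that turned negative with normexp. Cdk2, the kinase of DNA synthesis, read −0.31 and 0.43 in WR and −0.20 and 0.42 in RWR, a dye pattern with means of 0.06 ± 0.10 and 0.11 ± 0.10. The RWR value of Cdk2 turned negative under normexp, without background correction and with the median over probes. Cdk4, the partner of the D-type cyclins, had means of 0.00 ± 0.03 in both comparisons, among the tightest of the set.

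Cdk5, a kinase of neurons rather than of dividing cells, was measured on 10 spots a chip. Its chip means were 0.03, 0.10, −0.12 and 0.06, and the SD over spots ran from 0.06 to 0.12. Spots fell on both sides of 0 on every chip. The pair means were 0.07 ± 0.05 in WR and −0.03 ± 0.05 in RWR, and RWR over WR was −0.10 ± 0.08, all with intervals that took in 0.

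Among the replication genes, Prim1, Lig1 and Mcm7 had a WR interval below 0, where 17.1% of all probes had one that left out 0. That of Lig1 took in 0 with normexp, and the sign of Mcm7 followed the dye. Prim1, the catalytic primase subunit that lays the RNA primers of new DNA strands, had processed signals of 1263 against 1356 on chip 1 and 1149 against 1264 on chip 2. In RWR they were 1446 against 1467 on chip 3 and 1163 against 1196 on chip 4. The running pool was dimmer on each chip, by more in WR than in RWR. The log2 ratios were −0.10 and −0.14 in WR and −0.02 and −0.04 in RWR, and the means −0.12 ± 0.03 (0.920-fold, interval 0.887 to 0.955) and −0.03 ± 0.03. Set against WR, the RWR pool was higher by 0.08 in Cy5 and 0.10 in Cy3, with a mean of 0.09 ± 0.04.

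A second Prim1 probe gave 0.04 and −0.35 in WR and 0.18 and −0.23 in RWR. Its chips disagreed by dye, yet its means of −0.16 ± 0.03, −0.03 ± 0.03 and, for RWR over WR, 0.13 ± 0.04 were close to those of the brighter probe. The WR interval of Prim1 left out 0 under both other background settings, and that of RWR over WR under neither.

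Lig1, DNA ligase 1, joins the fragments of the lagging strand. Its processed signals were 800.2 against 860.4 and 721 against 752 in WR. In RWR they were 842 against 895 and 765 against 798. All 4 running signals were the lower ones. The log2 ratios were −0.10, −0.06, −0.09 and −0.06 on chips 1 to 4, close to each other on all chips. The means were −0.08 ± 0.03 in WR (0.944-fold, interval 0.907 to 0.984) and −0.07 ± 0.03 in RWR (0.950-fold, interval 0.912 to 0.989), and RWR over WR was 0.01 ± 0.04. With normexp both intervals took in 0, and without background correction that of RWR did.

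Mcm7, a subunit of the replicative helicase, had the pair mean farthest from 0 in WR among members measured throughout, and uneven chips. Its signals were 78.2 against 49.1 on chip 1 and 35.1 against 94.2 on chip 2. In RWR they were 97.96 against 71.3 on chip 3 and 83.6 against 97.7 on chip 4. The log2 ratios were 0.67, −1.43, 0.46 and −0.23, with the sign set by the dye in both pairs. The WR mean of −0.38 ± 0.15 and the RWR mean of 0.12 ± 0.15 gave RWR over WR as 0.49 ± 0.22, but the Cy5 difference was −0.21 and the Cy3 difference 1.20. The sign and size of these values hung on single chips. WR over sedentary was 0.67 without chip 2 and −1.43 without chip 1. RWR over sedentary was 0.46 without chip 4 and −0.23 without chip 3.

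Pcna, the sliding clamp of the replication fork and a common proliferation marker, had signals of 1767 against 1759 and 1707 against 1710 in WR. In RWR they were 2076 against 2023 and 1701 against 1809. The log2 ratios were 0.01, 0.00, 0.04 and −0.09 on chips 1 to 4, the largest in size on chip 4. Its means were 0.00 ± 0.03 in WR, or 1.00-fold with an interval of 0.965 to 1.04, and −0.03 ± 0.03 in RWR, or 0.983-fold with an interval of 0.947 to 1.02. Tyms, thymidylate synthase, followed the dye, with means of 0.04 ± 0.14 and 0.03 ± 0.14. Rrm2, the small subunit of ribonucleotide reductase, was well above background on 1 of 2 chips for each pool of the WR pair, and its 4 ratios ran from −0.96 to 0.85.

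The 4 mitotic genes measured throughout had means close to 0 on their brightest probes. Birc5, survivin, of the complex that attaches chromosomes to the spindle, read 0.32 and −0.33 in WR and 0.05 and −0.24 in RWR. The means were 0.00 ± 0.07 and −0.09 ± 0.07. The RWR value turned positive with normexp and without background correction, and with normexp the WR mean was −0.15, with an interval that left out 0. RWR over WR was −0.09, and 0.16 with normexp, where its interval left out 0. Cdc20, the activator of the anaphase-promoting complex, and the mitotic kinases Plk1 and Aurka had means between −0.05 and 0.03 in WR and between −0.07 and 0.06 in RWR. The second Plk1 probe, also measured throughout, gave 0.16 ± 0.125 in WR and −0.04 ± 0.125 in RWR, with intervals that took in 0. Aurkb, the kinase partner of survivin, was well above background on 1 of 2 chips for the WR pool, with ratios from −0.44 to 0.23. Its means were −0.205 ± 0.27 in WR and 0.10 ± 0.27 in RWR, and both intervals took in 0.

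Among the switches, Cdc25b, a phosphatase that activates Cdk1 at the entry into mitosis, read 0.18 and 0.03 in WR and 0.03 and −0.20 in RWR. Its mean was 0.10 ± 0.08 in WR and −0.09 ± 0.08 in RWR. RWR over WR was −0.15 in Cy5 and −0.23 in Cy3, with a mean of −0.19 ± 0.11 and an interval of −0.42 to 0.04. With normexp and without background correction this interval left out 0, as did that of RWR over sedentary. Cdc25a, its relative of the entry into DNA synthesis, had means of 0.01 ± 0.12 and −0.01 ± 0.12. Wee1, the kinase that opposes these phosphatases, had means of −0.01 ± 0.03 and 0.04 ± 0.03. Rbl2, the pocket protein p130 of resting cells, was the most precisely measured member, with means of −0.03 ± 0.03 and −0.04 ± 0.03.

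Of the 3 growth arrest genes, Btg2 alone had an interval that left out 0, in RWR over WR, where 11.9% of all probes had one. Btg2, an antiproliferative gene of progenitors on the way to neurons, had signals of 678 against 650.2 on chip 1 and 592 against 646 on chip 2. In RWR they were 809 against 724 on chip 3 and 613 against 629 on chip 4. The chips of each pair took opposite signs. The means were −0.03 ± 0.03 in WR and 0.06 ± 0.03 in RWR. RWR over WR was 0.10 in Cy5 and 0.09 in Cy3, with a mean of 0.09 ± 0.04 and an interval of 0.01 to 0.18, which took in 0 under the other background settings.

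Gadd45a, a stress-induced gene that responds to DNA damage, read −0.21 and 0.00 in WR and 0.02 and 0.06 in RWR. Its means were −0.10 ± 0.05 and 0.04 ± 0.05. RWR over WR was 0.23 in Cy5 and 0.06 in Cy3, with a mean of 0.14 ± 0.07 and an interval of −0.01 to 0.30. Btg1, the relative of Btg2, had means of 0.00 ± 0.03 and −0.02 ± 0.03.

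**Figure D4:**
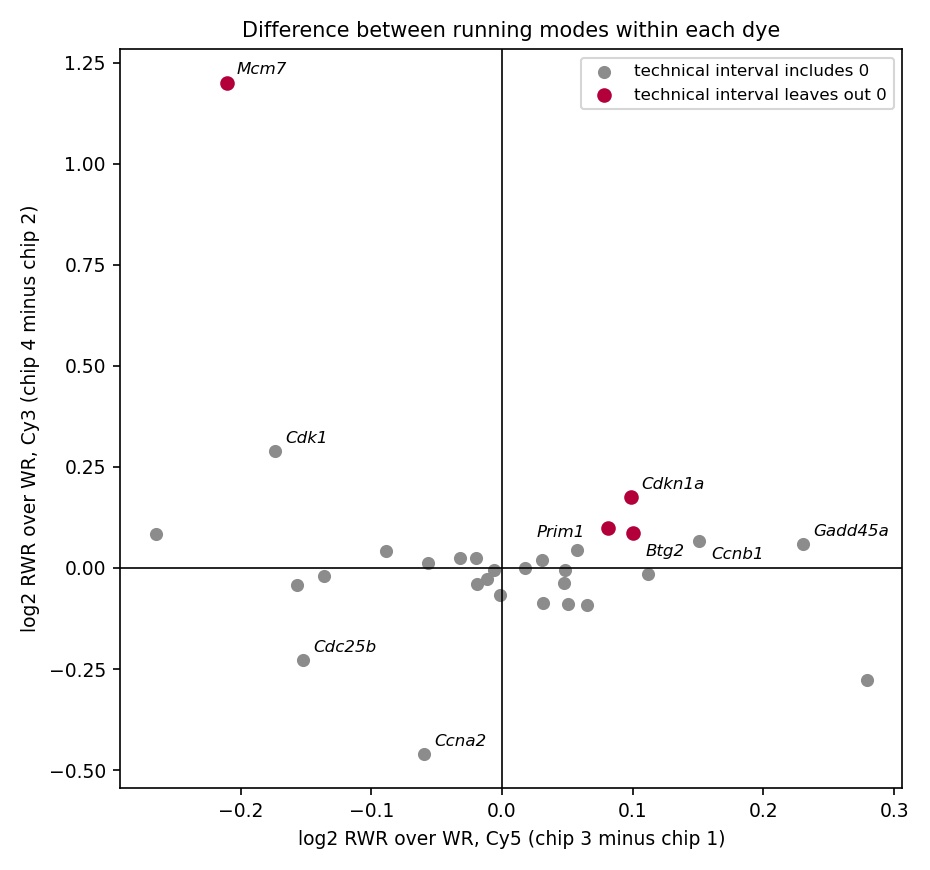
Log2 difference of RWR over WR in Cy5 (chip 3 minus chip 1, horizontal axis) against that in Cy3 (chip 4 minus chip 2, vertical axis) for the 30 members well above background throughout, on axes of different scale, with members whose technical interval leaves out 0 in red. Cdkn1a, Prim1 and Btg2 lie above 0 in both dyes, while Mcm7 lies at −0.21 in Cy5 and 1.20 in Cy3.

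How small a difference these chips could show varied with brightness. The technical SE of a pair mean ran from 0.03 for Rbl2 to 0.21 for Cdkn2c, with a median of 0.05 over the 30 members and 0.05 over all probes measured throughout. The dim cyclins and inhibitors Ccna2, Ccnb1, Cdkn2a and Cdkn2c had errors of 0.14 to 0.21. In WR the interval of Ccnb1 ran from −0.33 to 0.41 and that of Cdkn2c from −0.34 to 0.51, so that even a sizeable difference in these genes was not detectable. The bright probes of Ccnd1 (−0.02 to 0.09), Cdk4 (−0.05 to 0.06) and Pcna (−0.05 to 0.05) were held far closer to 0. Each interval covers a single probe and does not bound the difference of its gene. The second Ccnd1 probe had a WR mean of −0.05, outside the interval of the first, whereas those of Cdk4 (0.00) and Pcna (0.045) lay within.

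Other genes of the cycle and of replication, listed by function, were read in the same way. Of 81 genes, 32 had a named probe and 27 were measured throughout, with medians of −0.01 in WR and 0.01 in RWR and 0 past the fold limits in either. The interval left out 0 for 7 of 27 in WR, beside 17.1% of all probes, among them Ccng1 (0.09), Cdk9 (0.06) and Plk2 (0.06) above 0 and Ccna1 (−0.11), Cdkn2d (−0.07) and Rfc3 (−0.13) below. Rfc3, of the clamp loader that places PCNA on DNA, read −0.08 and −0.19 in WR and 0.02 and 0.01 in RWR, a WR mean of −0.13 ± 0.03 and an RWR mean of 0.02 ± 0.03. In RWR the interval left out 0 for 6 of 27, beside 20.4% of all probes, among them Cdk9 (0.06) and Plk2 (0.10) above 0 and Ccna1 (−0.10), Fen1 (−0.09) and Rrm1 (−0.19) below. For RWR over WR it did so for 3 of 27, beside 11.9% of all probes, among them Rfc3 (0.15 ± 0.04).

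Markers of the cells in the tissue were read beside these values. Neuronal (4 of 5 with a probe), astrocyte (3 of 3), oligodendrocyte (3 of 3) and microglial (4 of 4) markers were all well above background throughout, whereas Prox1 of granule cells and the lymphocyte markers had no named probe. Among the neuronal, astrocyte and microglial markers the interval left out 0 for Syt1 of neurons (−0.07 in both WR and RWR), Aldh1l1 of astrocytes (−0.10 in WR) and Aif1 of microglia (0.06 in WR and 0.13 in RWR). In RWR it also did so for Snap25 (0.08), Gad1 (0.07) and Slc17a7 (−0.09) of neurons and Itgam (−0.28) of microglia. The swapped chips behind these means took opposite signs for Syt1, Aldh1l1, Snap25, Gad1 and Slc17a7, and the same sign for Aif1 and Itgam. Of all probes measured throughout, 17.1% in WR and 20.4% in RWR had an interval that left out 0. Nes, nestin of neural progenitors, read −0.08 and −0.12 in WR and 0.16 and 0.17 in RWR, with means of −0.10 ± 0.03 and 0.16 ± 0.03. Dcx, doublecortin of immature neurons, had means of 0.06 ± 0.03 and 0.02 ± 0.03. The oligodendrocyte markers Mbp and Mog had means of −0.07 and −0.06 in WR and of −0.24 and −0.08 in RWR. Ttr, the carrier protein of the choroid plexus, read −0.72 and −0.99 in WR and 0.20 and 0.04 in RWR, while Folr1 of the same tissue had means of −0.21 ± 0.18 and 0.06 ± 0.18, and Kl and Aqp1 were not well above background throughout. Of the other lists, Cspg4 of oligodendrocyte progenitors, Cldn5 and Flt1 of endothelium, Gh1 and Pomc of the pituitary and Hbb and Alas2 of blood were measured throughout, with WR means from −0.29 (Gh1) to 0.09 (Cspg4) and RWR means from −0.17 (Flt1) to 0.12 (Alas2). Pecam1 of endothelium was not well above background throughout. Prl, prolactin of the pituitary, passed the background flag on 2 of 2 chips of each pair for sedentary RNA and on 0 of 2 for either running pool. It was lower in the running pool on all 4 chips and past the fold limits in both pairs. The sedentary signal was at least 1.504-fold that of WR and at least 2.005-fold that of RWR, with each dim reading taken at the lowest signal that passed the flag, or at its own where higher. The part of these marker differences in the values of Cdkn1a, Prim1 and Lig1 was not tested.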

How the data were processed

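The authors scanned the chips and processed them with Agilent Feature Extraction 11.0.1.1. They deposited, for each spot and dye, a processed signal, an intensity after background subtraction and LOWESS dye normalisation, together with a log10 ratio of Cy5 over Cy3 and a p-value of the software's error model for that chip. The deposited table of the whole series holds the log10 ratio without a turn for the swap. It matched the processed signals within 0.0001 at 100% of features, with column medians from 0.0009 to 0.0102, and was used for this check alone. The array was designed on the rn4 build.

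Here, log2 ratios were taken from the deposited processed signals, and flagged and control spots were left out, with 118 to 140 flagged spots per chip. Spots of a probe were averaged, and a probe counted as well above background when at least 0.5 of its spots were. Transcript accessions, without versions, were matched to RefSeq symbols of GRCr8, used for names. The technical error came from limma 3.58.1 (R 4.3.3) with 1 residual and 31.1 prior degrees of freedom. Median processed signals ranged from 57.9 to 73.5.

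Values are named for members past a fold limit or with an interval that left out 0, and for the 6 members with the largest means in each comparison. The rule also named Cdc6, Mki67, Pcna, Top2a and Ccnd1, of which Pcna and Ccnd1 had a named probe. The other genes of the cycle and the markers are lists of 81 genes and of 12 cell types or tissues. Some genes of these lists are not reported here. The members and lists were chosen with earlier results of these data known. Alternatives were loess on normexp-corrected (offset 50) or uncorrected median signals, median centring, flagged spots kept, the median over probes, dim probes left out, equal fold limits, the deposited log10 ratio, no p-value filter and each chip left out. Computations used Python 3.11.15, numpy 2.4.6 and pandas.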

Additional observations from a re-analysis of the deposited data

How the results depend on the processing

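With all chips kept, 195 values of named genes stayed within 1 SD of the 2 chips of the reported value and 45 moved further. For ratios over sedentary that SD includes the dye effect and is wide. The RWR mean of Ccna2 counted as within it although it went from −0.29 to −0.01 with normexp. The count of 195 is therefore no measure of stability. Leaving out a chip turned the sign of 25 of 48 values of named genes. The medians over sedentary lie so near 0 that leaving out a chip turned their sign, from −0.08 to 0.06 in WR and from −0.09 to 0.04 in RWR. The count of members called stayed at 0 in RWR over sedentary throughout, and in WR over sedentary it ran from 0 to 2 when a chip was left out, 2 of them without chip 1 of the WR pair. In RWR over WR, 1 member (Cdkn2b, dim) was past the fold limits, 0 with normexp, 0 without background correction, 0 when dim probes were left out, and 1 to 5 when a chip was left out, 5 of them where the Cy3 chips alone were read. The median of RWR over WR, 0.0011, was 0.033 with normexp, 0.021 without background correction, 0.0054 with median centring, 0.0077 with the median over probes and −0.0065 to −0.00098 when a chip was left out. Intervals that left out 0 were recomputed with both background settings after the data had been seen. In WR they numbered 4 members with each, beside 19.7% of all probes measured throughout with normexp and 16.25% without background correction. In RWR they numbered 3 with each (Mcm7 above 0, Cdkn1a and Cdc25b below), beside 23.4% and 22.8% of probes. The 1 reported in RWR, Lig1, was lost under both. In RWR over WR they numbered 3 with normexp and 2 without background correction against 4 reported, beside 19.1% and 15.2% of probes. The cause of these changes was not tested. The interval could not be recomputed with a chip left out, since no residual degree of freedom remains. No paired analysis was possible because both chips of a pair repeat the same 1 pool per group. Single pools, dye effects and dim probes limit the values given here.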
